A study of Larimichthys crocea with 3 samples.

Results

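The barcodes described here came from a juvenile testis library of the large yellow croaker, Larimichthys crocea, and were rich in transcripts of oocyte genes. Members were chosen by 2 measured values, depth and the count of 4 transcripts: they were the barcodes with 1000 to 6000 unique molecular identifiers (UMIs) of which at least 10 came from 4 genes together: h1m (LOC104933318), zp3c (LOC104921608), zar1 and btg4 (LOC104924183). Of the 4742 juvenile barcodes, 3691 met this rule, or 77.8%, and the 3 libraries of the series held 37370 barcodes in all. A barcode marks the RNA captured in a droplet, and the word is used in place of cell because nothing in the files shows that each droplet held a cell of its own. The members held 11584070 UMIs, 46.7% of the library, and had a median of 3042 UMIs (range 1023 to 5975) and 1463 detected genes.

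Droplet sequencing with the 10x Genomics 3′ v3 chemistry was applied to testes at 3 stages: juvenile, adult regressed and adult differentiating. The labels give no age, strain, treatment or number of fish, and each stage was 1 library of testicular cells freed with trypsin and collagenase after blood and tunica had been taken off. Library and stage therefore cannot be told apart, no replicate error could be estimated, and no test was made. Levels are counts per 1000000 UMIs (CPM) over a set of barcodes, not scaled for gene length. A bracketed range beside a level, share or ratio is its exact 95% interval from counting error, which leaves out any spread between fish or libraries. For levels and ratios it counts UMIs and leaves out the spread between barcodes, so it is too narrow where that spread is wide. For shares it counts barcodes, which are not replicates. Read depth behind the UMIs was not given.

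An oocyte that enters its growth phase stores messenger RNA, ribosomal components and chromatin proteins for the embryo, and builds an egg coat of zona pellucida proteins around itself. In fish and frogs the youngest oocytes also make much transcription factor IIIA (gtf3a), which binds and stores 5S ribosomal RNA. Later the oocyte takes up yolk protein through receptors of the low density lipoprotein receptor family and waits, arrested in meiosis, for a signal acting through mos and cyclin B. A testis holds Sertoli cells, marked by gsdf, amh and dmrt1, that support the germ cells, and in some fish a testis can hold oocytes among the male germ cells.

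The 683 juvenile barcodes with more than 6000 UMIs served as the comparison. They held 51.7% of the library's UMIs and had a median of 14706 UMIs and 3372 genes, with 268917 UMIs in the deepest. A further 174 barcodes had 1000 to 6000 UMIs and fewer than 10 from the 4 genes, and 194 had 500 to 999 UMIs. In the adult libraries, 8749 barcodes of the differentiating testis and 4497 of the regressed testis had 1000 to 6000 UMIs, with medians of 2983 and 3103, and gave levels at the members' depth. Barcode sequences were shared with the adult libraries by 33 members (15 with the differentiating and 18 with the regressed testis) and by 6 of the deeper juvenile barcodes. With these left out, the ratio of oocyte genes given below was 1.439 in place of 1.438.

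The values that chose the members are given as a description. The 4 genes took 10 to 71 UMIs per member, with a median of 25, and a median of 0.829% of a member's UMIs. The maternal linker histone h1m stood at 3028 CPM in members, 2388 CPM in barcodes over 6000 UMIs, 0.145 CPM in the differentiating and 0.481 CPM in the regressed adult testis. The egg coat gene zp3c stood at 2688, 1851, 0.398 and 0.412 CPM in the same order. The RNA-binding protein gene zar1 stood at 1697, 1299, 48.8 and 62.3 CPM. For btg4, whose product guides removal of maternal mRNA in the mouse, levels were 905 CPM in members, 566 CPM in deeper barcodes and 0.398 CPM in the differentiating testis, and no UMI was seen in the regressed testis.

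All 4 genes were therefore also abundant in the juvenile barcodes that the rule left out. In the barcodes under 1000 UMIs they summed to 7454 CPM (7008 to 7921), against 8319 CPM (8266 to 8371) in members and 6103 CPM (6060 to 6146) over 6000 UMIs. The threshold cut through a continuous range: 63 members had exactly 10 UMIs of the 4 genes and a median depth of 1491 UMIs, and 62 barcodes just outside had 9 and a median depth of 1484.5. Oocyte genes that the rule did not use stood at 6425 CPM in the former and 6530 CPM in the latter. Of the 174 barcodes that fell short, the median depth was 1405 UMIs.

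**Figure D1:**
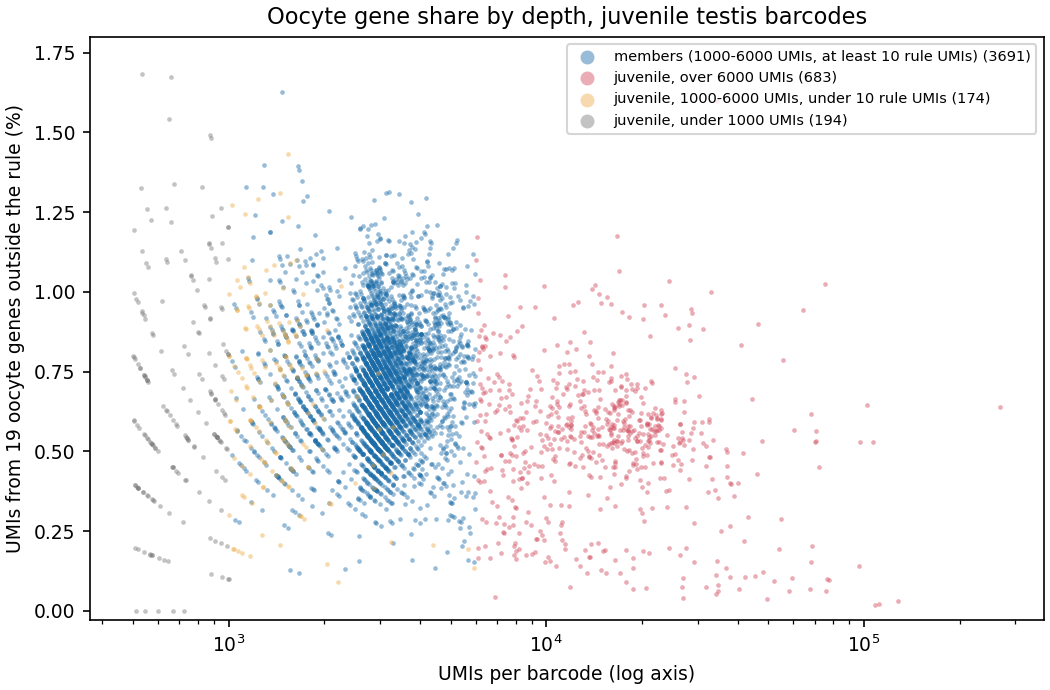
Share of each juvenile barcode's UMIs (%) from 19 oocyte genes outside the rule against its UMIs (log axis), 1 point per barcode, coloured by set. Members had a median of 0.71% and barcodes over 6000 UMIs a median of 0.551%; a group of points near 0.1% to 0.3% lies mostly above 6000 UMIs.

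The other oocyte genes gave levels that the rule did not set, although they come from the same barcodes. Together, 19 genes stood at 7154 CPM (7105 to 7203) in members and 4973 CPM (4935 to 5012) in barcodes over 6000 UMIs, a ratio of 1.44 (1.42 to 1.45). They stood at 6816 CPM (6390 to 7263) under 1000 UMIs and at 6371 CPM (6074 to 6679) in the barcodes short of 10 UMIs. The differentiating testis had 399.5 CPM and the regressed testis 174.3 CPM. The juvenile sets of every depth thus lay above both adult sets.

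Against barcodes over 6000 UMIs, 17 of the 19 genes had the 100 UMIs needed to count them, and 15 of these were higher in members, 5 of them at least 2-fold. None was 2-fold lower. Over all 11270 genes counted, 1355 (12.0%) were at least 2-fold higher in members and 1079 (9.57%) at least 2-fold lower. The median log2 ratio was 0.77 for the oocyte genes and 0.28 for all genes. When size factors set the median of all genes to 0, 477 genes were 2-fold higher and 1449 were lower, and 12 of the 17 oocyte genes stayed above 1.

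Of the egg coat genes, zpcx stood at 1753 CPM in members, 1073 CPM over 6000 UMIs, 0.0362 CPM in the differentiating and 0.275 CPM in the regressed testis, with a ratio of members to deeper barcodes of 1.63 (1.60 to 1.67). The related zp3d.2 was far scarcer, at 42.2 CPM in members against 24.8 CPM. For zpd the juvenile sets were close, at 267 CPM in members and 244 CPM over 6000 UMIs (ratio 1.096, 1.04 to 1.15, and below 1 with the size factors), and the differentiating testis had 52.1 CPM.

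Regulators of the oocyte fate and secreted oocyte factors split into a group that was higher in members and a pair that was not. The growth factor gene gdf9, which oocytes use to signal to follicle cells, stood at 74.7 CPM in members and 22.7 CPM over 6000 UMIs (ratio 3.28, 2.87 to 3.76), and its partner bmp15 at 188 and 83.8 CPM (ratio 2.24, 2.08 to 2.41). The homeobox gene nobox stood at 73.2 and 29.1 CPM (ratio 2.52, 2.23 to 2.85). In contrast, figla, a transcription factor of egg coat genes in the mouse, stood at 40.1 and 43.3 CPM (ratio 0.926, 0.817 to 1.05). The gene foxl2l, which acts in female germ cell fate in medaka, stood at 32.9 and 47.5 CPM (ratio 0.692, 0.607 to 0.788). The other genes of the list were near the detection limit, with 7 UMIs of lhx8 and 13 of tbpl2 in all 3691 members.

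The 5S RNA storage gene gtf3a was among the highest of the oocyte genes in all juvenile sets. It stood at 1586 CPM in members, 1428 CPM over 6000 UMIs, 1246 CPM under 1000 UMIs, 0.181 CPM in the differentiating and 0.0687 CPM in the regressed testis. The ratio of members to deeper barcodes was 1.11 (1.09 to 1.13) and was 0.912 with the size factors, so its direction depended on scaling.

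Maternal RNA regulators were higher in members for all 8 genes counted outside the rule, 7 with the size factors. Their median log2 ratio was 0.95, against 0.28 for all genes. The RNA-binding genes cpeb1 (589 against 295 CPM), lsm14b (479 against 244 CPM) and patl2 (231 against 116 CPM), which act on stored messages in frog and mouse oocytes, were close to 2-fold higher. The Y-box gene ybx2 stood at 121 against 42.2 CPM (ratio 2.87, 2.60 to 3.18), and the oocyte histone mRNA-binding gene slbp2 at 505 against 266 CPM. Smaller ratios were found for birc5b (1.26, 1.21 to 1.31) and zar1l (1.05, 1.02 to 1.09, and below 1 with the size factors). The poly(A)-binding gene pabpc1l was the exception against the adults: it stood at 99.8 CPM in members, 68.4 CPM over 6000 UMIs, 270.9 CPM in the differentiating and 87.2 CPM in the regressed testis.

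At equal depth range, 14 of 18 oocyte genes with 100 UMIs were at least 10-fold higher in members than in the differentiating testis, where 8.72% of all 12834 genes were, and 13 of 17 were at least 10-fold higher than in the regressed testis, where 5.30% of 12641 genes were. The gene lhx8 went the other way, at 0.604 CPM in members and 47.4 CPM in the differentiating testis. The 100 UMIs were summed over both sets. A gene such as gtf3a, with 18369 UMIs in members and 5 in the differentiating testis, passed through members alone. The lists were also chosen with earlier results of these data known, so these counts are a description only.

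**Figure D2:**
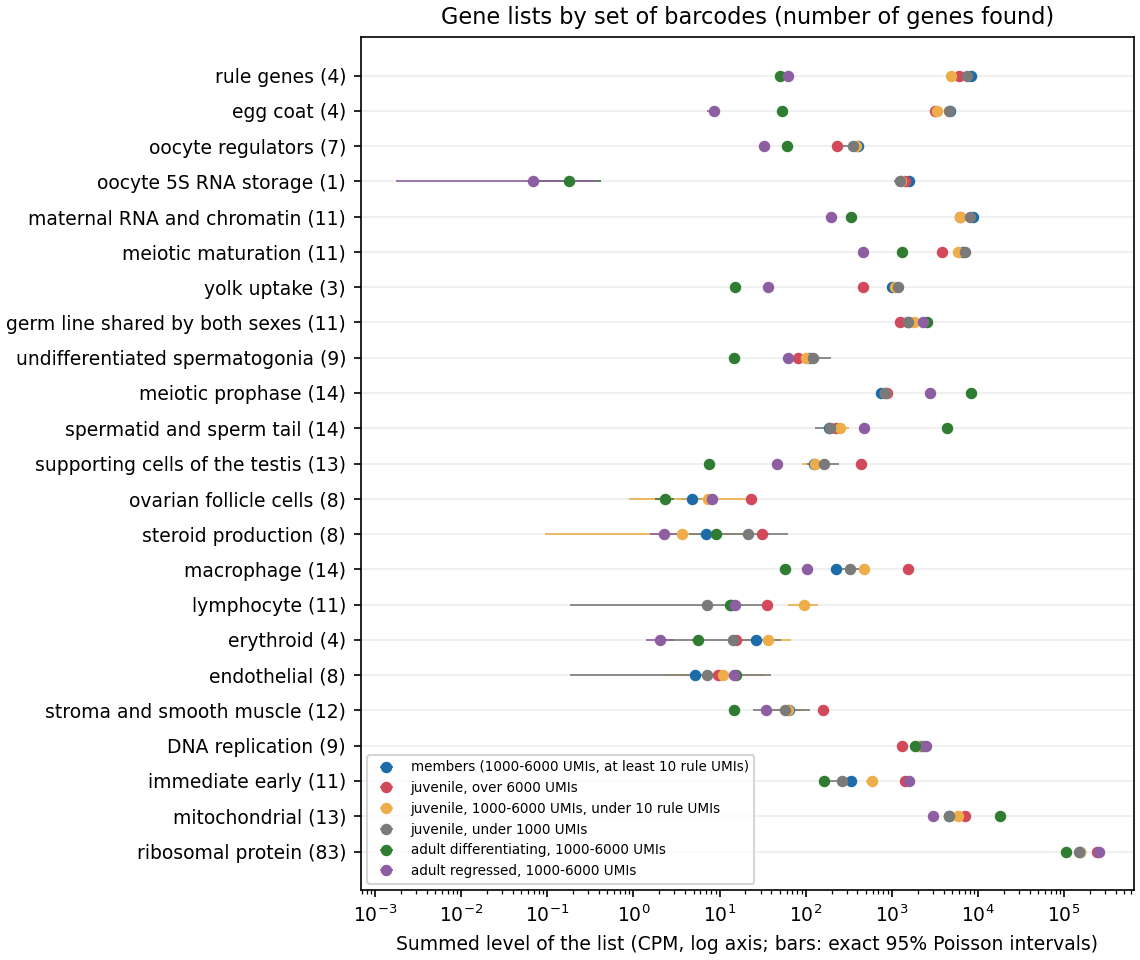
Summed level of each gene list (CPM, log axis) in 6 sets of barcodes, with exact 95% Poisson intervals; the number of genes found is in brackets, and the egg coat and maternal lists include genes of the rule. In the oocyte, maturation and yolk lists every juvenile set stands to the right of both adult sets, by the most for gtf3a at 1586 CPM in members and 0.181 CPM in the differentiating testis.

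The list for meiotic arrest and maturation, which includes general cell cycle genes, summed to 6678 CPM (6631 to 6726) in members. In barcodes over 6000 UMIs it summed to 3836 CPM (3803 to 3870), a ratio of 1.74 (1.72 to 1.76). Most of the sum in members came from ccnb1, ccna2 and cdc20. Of 11 counted genes, 10 were higher in members (9 with the size factors). Their median log2 ratio was 0.83, against 0.28 for all genes. Cyclin B1 (ccnb1) stood at 2026 CPM in members, 1093 CPM over 6000 UMIs, 44.3 CPM in the differentiating and 18.3 CPM in the regressed testis. Cyclin A2 (ccna2) stood at 1779, 1035, 64.4 and 44.7 CPM in the same order. The kinase gene mos, which holds the mature egg in arrest, stood at 236 against 128 CPM, and wee2, an oocyte kinase that restrains Cdk1 in mammals, at 335 against 188 CPM. Both were under 10 CPM in each adult set.

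Within this list, fbxo5 (ratio 2.74, 2.36 to 3.19) and fbxo43 (ratio 2.20, 2.05 to 2.37), inhibitors of the anaphase-promoting complex, were at least 2-fold higher, while its activator cdc20 stood at 1347 against 806 CPM. In CPM the kinase partner cdk1 did not differ beyond counting error, at 190.5 and 187.5 CPM (ratio 1.02, 0.959 to 1.08, and below 1 with the size factors). Cyclin A1 (ccna1), a cyclin of spermatocytes in the mouse, was lower, at 4.06 against 8.26 CPM, and stood at 208 CPM in the differentiating testis.

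Receptors of yolk uptake had the largest ratio of the oocyte-related lists, 2.19 (2.12 to 2.26), with 1010 CPM in members and 461 CPM over 6000 UMIs. The receptor gene lrp13 stood at 648 CPM in members, 325 CPM over 6000 UMIs and 0.580 CPM in the differentiating testis. The vitellogenin receptor gene vldlr stood at 359, 134 and 11.9 CPM (ratio of members to deeper barcodes 2.68, 2.53 to 2.83). The third gene found, lrp8, had 37 UMIs in members and was not counted.

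Germ line genes used by both sexes were present but, as a list, did not set members apart from all deeper barcodes together. Their 11 genes summed to 1556 CPM in members, 1256 CPM over 6000 UMIs, 2596 CPM in the differentiating and 2292 CPM in the regressed testis, and their median log2 ratio of 0.24 lay just under the 0.28 of all genes. The helicase gene ddx4 (vasa) stood at 449 CPM in members and 348 CPM over 6000 UMIs, and the piRNA gene piwil1 at 222 and 280 CPM. The pluripotency factor gene pou5f3 stood out, at 316 CPM in members, 90.9 CPM over 6000 UMIs, 0.0724 CPM in the differentiating and 0.756 CPM in the regressed testis (ratio of members to deeper barcodes 3.47, 3.25 to 3.71). The RNA regulator gene nanos3 stood at 23.7 against 7.56 CPM and had no UMI in the differentiating testis.

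Genes of meiotic prophase, and genes of spermatids and the sperm tail, were lower in members than in either adult set. The 14 genes of meiotic prophase summed to 746 CPM in members and 888 CPM over 6000 UMIs. They stood at 8369 CPM in the differentiating and 2754 CPM in the regressed testis. None of the 14 differed 2-fold between the juvenile sets, where 12.0% of all genes were 2-fold higher in members and 9.57% lower. The synaptonemal complex gene sycp3 stood at 264 CPM in members, 380 CPM over 6000 UMIs and 2947 CPM in the differentiating testis. Genes of spermatids and the sperm tail summed to 189 CPM in members, 224 CPM in deeper barcodes and 4408 CPM in the differentiating testis. The sum of the genes of undifferentiated spermatogonia went the other way against the adults, at 109.5 CPM in members, 80.5 CPM over 6000 UMIs, 14.8 CPM in the differentiating and 61.6 CPM in the regressed testis. Most of that sum in members came from etv5a and sall4, with 252 and 180 UMIs when each member was thinned at random to 1000 UMIs. There id4 had 9 UMIs, nanos2 7, zbtb16 6 and gfra1a 2. Against deeper barcodes, only 4 of the 9 genes found had enough UMIs to be counted. Of these, 2 were at least 2-fold lower and 1 at least 2-fold higher, against 9.57% and 12.0% of all 11270 genes. The median log2 ratio of the 4 was -0.85, against 0.28 for all genes. Of the list, nanos2 stood at 1.64 CPM in members and 14.7 CPM over 6000 UMIs (ratio 0.111, 0.0656 to 0.179), while sall4 stood at 46.9 and 15.04 CPM (ratio 3.12, 2.64 to 3.69).

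Somatic genes were lower in members than in deeper barcodes. Genes of the supporting cells of the testis summed to 126 CPM (120 to 133) in members and 440 CPM (429 to 452) over 6000 UMIs, a ratio of 0.286 (0.270 to 0.303). This low level was not particular to members. The list stood at 129 CPM (90.2 to 180) in barcodes short of 10 UMIs of the 4 genes. Under 1000 UMIs it stood at 165 CPM (104 to 247). Much of the gap to deeper barcodes lay in a part of them, described below. Of 6 counted genes, 4 were at least 2-fold lower, against 9.57% of all 11270 genes. The Sertoli factor gsdf stood at 9.06 against 88.4 CPM, the tight junction gene cldn11a at 16.6 against 182 CPM, wt1 at 8.03 against 64.0 CPM, and dmrt1, the male-pathway transcription factor, at 2.16 against 13.1 CPM. In CPM the inhibin gene inha did not differ beyond counting error (66.4 against 67.2 CPM, and lower in members with the size factors), and sox8a was higher in members (18.2 against 10.8 CPM). The defining Sertoli gene amh had 4 UMIs in all members and 41 over 6000 UMIs, and sox8 had 0 UMIs in members, which allows up to 0.259 CPM.

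Macrophage genes summed to 225 CPM in members and 1550 CPM over 6000 UMIs, a ratio of 0.145 (0.139 to 0.151). All 8 counted genes of the 14 found were at least 2-fold lower, against 9.57% of all genes. The antigen presentation gene cd74b stood at 101 against 693 CPM, and the complement gene c1qa at 11.1 against 88.5 CPM. Of 7 counted genes of stroma and smooth muscle, 5 were at least 2-fold lower, led by the matrix gene dcn (1.12 against 19.6 CPM). Ovarian follicle cell genes were near the floor, at 4.75 CPM in members and 23.1 CPM in deeper barcodes, with foxl2 at 23 UMIs and cyp19a1a, the aromatase gene, at 5 UMIs over all members. Rare types were also low: the lymphocyte list stood at 13.5 against 35.1 CPM, steroid production at 6.99 against 31.4 CPM and endothelium at 5.18 against 9.66 CPM. Only the erythroid list was higher in members among the somatic lists, at 26.7 against 15.6 CPM. Its 4 genes found (gata1a, hemgn, slc4a1a and alas2) included no hemoglobin gene, so its level is not that of all erythroid RNA. Of its 309 UMIs in members, 111 lay in 37 barcodes described below.

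**Figure D3:**
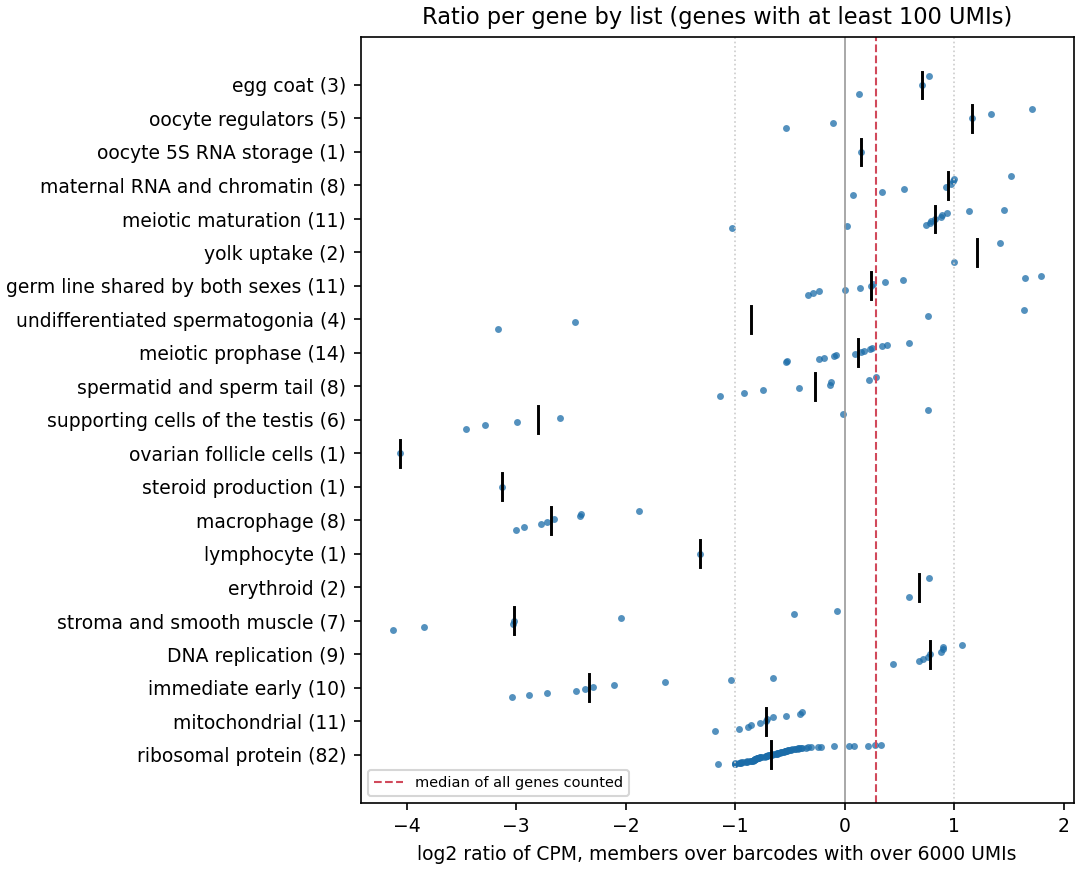
Log2 ratio of CPM, members over barcodes with more than 6000 UMIs, for each gene with at least 100 UMIs (points), by list; black bars are list medians, the dashed line the median of all genes (0.28) and dotted lines 2-fold. Oocyte, maturation and yolk lists lie right of 0 with few exceptions, whereas supporting cell, macrophage and immediate early lists have medians of -2.80, -2.68 and -2.33.

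Immediate early genes, which cells switch on within minutes of a stimulus or of tissue handling, were lower in members for all 10 features counted, 9 of them at least 2-fold. Of all genes, 9.57% were at least 2-fold lower. The immediate early list summed to 333 against 1416 CPM. The AP-1 gene fosb stood at 24.6 against 202 CPM, and junbb at 33.8 against 249 CPM. Genes of DNA replication were higher for all 9 counted, at 2105 against 1317 CPM, with the sliding clamp gene pcna at 785 against 579 CPM. Their median log2 ratio was 0.78, against 0.28 for all genes.

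Ribosomal protein and mitochondrial transcripts took smaller shares of members than of deeper barcodes. The 83 ribosomal protein genes took 152477 CPM in members and 242629 CPM over 6000 UMIs, a ratio of 0.628 (0.627 to 0.630). Of 82 counted genes, 3 were at least 2-fold lower, against 9.57% of all 11270 genes. With the size factors 35 of the 82 were, against 1449 of the 11270. The 13 mitochondrial genes took 4675 against 7073 CPM, and the median mitochondrial share per barcode was 0.255% in members and 0.535% in deeper barcodes. Since the ribosomal protein genes made up so large a part of the total, ratios of other genes in CPM moved with them.

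The 15 genes with the highest ratios, ranked by the end of the interval nearer 1, included 8 with a symbol. The de novo DNA methyltransferase gene dnmt3ba led these, at 206 CPM in members, 47.7 CPM over 6000 UMIs, 12.02 CPM in the differentiating and 18.5 CPM in the regressed testis (ratio 4.33, 3.96 to 4.74). The nuclear import gene ipo5 (87.0 against 22.4 CPM), pou5f3, the ubiquitin ligase gene trim36 (58.5 against 15.4 CPM) and the chromatin remodeller gene hells (54.0 against 14.3 CPM) followed. The remaining ones were fgfr1 (59.7 against 16.0 CPM), fmn2a (20.5 against 4.83 CPM) and herc2 (367 against 109 CPM). The formin that fmn2a is named for positions the meiotic spindle in mouse oocytes. No UMI of trim36 or fmn2a was seen in the differentiating testis, whereas hells (53.7 CPM) and fgfr1 (99.02 CPM) were as high or higher there. High levels of most of these genes were not particular to members. In juvenile barcodes short of 10 UMIs of the 4 genes, dnmt3ba (226 CPM), ipo5 (133), hells (70.3), fgfr1 (70.3) and herc2 (440) stood above members. There pou5f3 (303 CPM), trim36 (51.8) and fmn2a (3.70, near the detection limit) stood below members. Under 1000 UMIs, dnmt3ba stood at 222 CPM.

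Of the 15 lowest ratios, 9 genes had a symbol. The decoy receptor gene tnfrsf11b had 1 UMI in members and 199 over 6000 UMIs (ratio 0.00557, 0.00014 to 0.0314), and lyve1, a hyaluronan receptor, 1 and 120. The growth factor gene fgf1 stood at 3.11 against 61.9 CPM and crhbp at 4.83 against 73.9 CPM. The iron hormone gene hamp (3.88 against 69.2 CPM), the prostaglandin synthase gene ptges (4.92 against 83.2 CPM), ecm1a (10.5 against 154 CPM) and marcksl1b (23.1 against 356 CPM) were also among them.

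Among the 15 most abundant genes of members outside the mitochondrial and ribosomal protein sets, 4 had a symbol. The fatty acid-binding protein gene fabp4b (9053 CPM in members, 9072 over 6000 UMIs) and the metallothionein gene mt2 (8451 and 8394 CPM) were close to equal in CPM. A second fatty acid-binding protein gene, fabp1, was lower in members (6850 and 8725 CPM, ratio 0.785, 0.778 to 0.792). The copper chaperone gene cox17 was somewhat higher in members (4591 and 4061 CPM, ratio 1.13, 1.12 to 1.14). Both adult sets lay far below: mt2 stood at 0.362 CPM in the differentiating and 30.8 CPM in the regressed testis, and fabp1 had 1 UMI in each. Chosen after their values were seen, kpna7, an importin of oocytes and early embryos in mammals, stood at 3417 CPM in members, 2289 CPM over 6000 UMIs and 0.254 CPM in the differentiating testis. The gene org, named after oogenesis in zebrafish, stood at 3313, 3279 and 14.7 CPM, and the phosphatase gene acp5 at 3131, 2578 and 0.109 CPM.

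Depth was then examined over all juvenile barcodes, without regard to the 4 genes. Oocyte genes outside the rule lay between 6816 and 7424 CPM in the 6 bins under 6000 UMIs, then at 5393 CPM from 6000 to 10000, 5594 CPM from 10000 to 20000 and 4495 CPM over 20000 UMIs. Supporting cell genes stood at 165 CPM under 1000 UMIs, 119 CPM at 5000 to 6000 UMIs and 592 CPM over 20000 UMIs. Macrophage genes lay between 209 and 428 CPM under 6000 UMIs and reached 1843 CPM at 10000 to 20000 UMIs. Ribosomal protein genes stood at 146689 CPM at 1000 to 2000 UMIs and at 255930 CPM over 20000 UMIs.

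**Figure D4:**
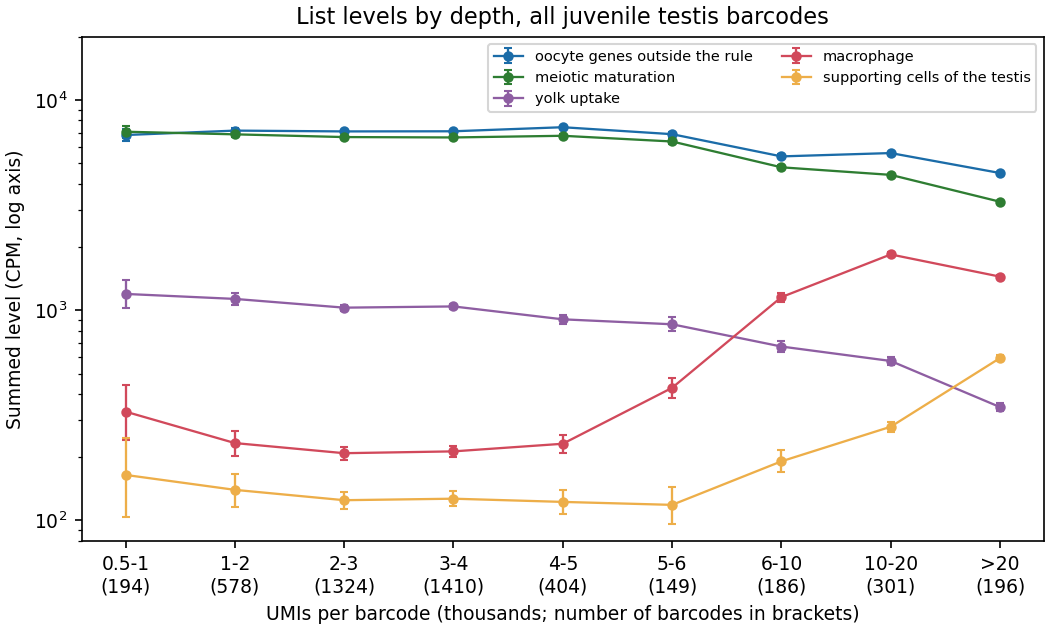
Summed level of 5 gene lists (CPM, log axis) in all juvenile barcodes by UMIs per barcode, with exact 95% Poisson intervals and the number of barcodes in each bin. Oocyte and maturation levels differ little between bins below 6000 UMIs and are lower above. Yolk uptake is lower with depth, from 1196 CPM at 500 to 1000 UMIs to 858 CPM at 5000 to 6000 and 346 CPM over 20000. The exception is a near-level step from 1029 CPM at 2000 to 3000 UMIs to 1043 CPM at 3000 to 4000. Macrophage and supporting cell levels are higher above 6000 UMIs.

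To compare barcodes at equal depth, each was thinned at random to 1000 UMIs, which left out none of the 3691 members, the 683 deeper barcodes or the adult barcodes. A thinned member then had a median of 662 genes, against 581 in deeper juvenile barcodes, 757 in the differentiating and 712 in the regressed testis (1463, 3372, 1688 and 1734 before thinning). Members held a median of 7 UMIs of the 19 oocyte genes (5th to 95th percentile 3 to 12), and deeper barcodes 5 (1 to 11). Only 3 members (0.0813%) had none, against 25 deeper barcodes (3.66%). Among the 174 barcodes short of 10 UMIs of the 4 genes, which the rule left out, 2 (1.15%) had none. In the differentiating testis 71.0% and in the regressed testis 84.3% had none.

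Members varied little in their content of these transcripts. The variance of the thinned oocyte UMIs was 1.104 times their mean in members, where 1 is the value of random sampling alone. It was 1.87 times in deeper barcodes and 1.39 times in the 174 barcodes short of 10 UMIs of the 4 genes. Before thinning, the share of oocyte genes had an SD of 0.188 percentage points over members, where sampling alone would give an SD of 0.158. Over 6000 UMIs the SD was 0.219, and sampling alone would give 0.0619. By gene, the median of variance over mean for oocyte genes was 1.04 in members, highest for foxl2l (1.27), and 1.08 in deeper barcodes. A value near 1 was not particular to oocyte genes: genes of meiotic prophase gave 1.06 and of spermatids 1.04 in members. Macrophage genes gave 1.53 and 6.31, supporting cell genes 1.05 and 2.32, and immediate early genes 1.395 and 2.36. Supporting cell genes averaged only 0.00677 (wt1) to 0.0669 (inha) UMIs per thinned member. For genes this scarce the value can stay near 1 even where the spread is wide. It therefore cannot show how evenly members held them, and the same limit holds for scarce genes of the other lists. Without thinning, the squared coefficient of variation beyond UMI sampling was taken for genes with at least 200 UMIs in both sets. For 17 oocyte genes its median was 0.126 in members and 0.595 over 6000 UMIs, and 15 were higher in the latter. Over all 5380 such genes the medians were 0.657 and 0.407, and 2143 were higher over 6000 UMIs.

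**Figure D5:**
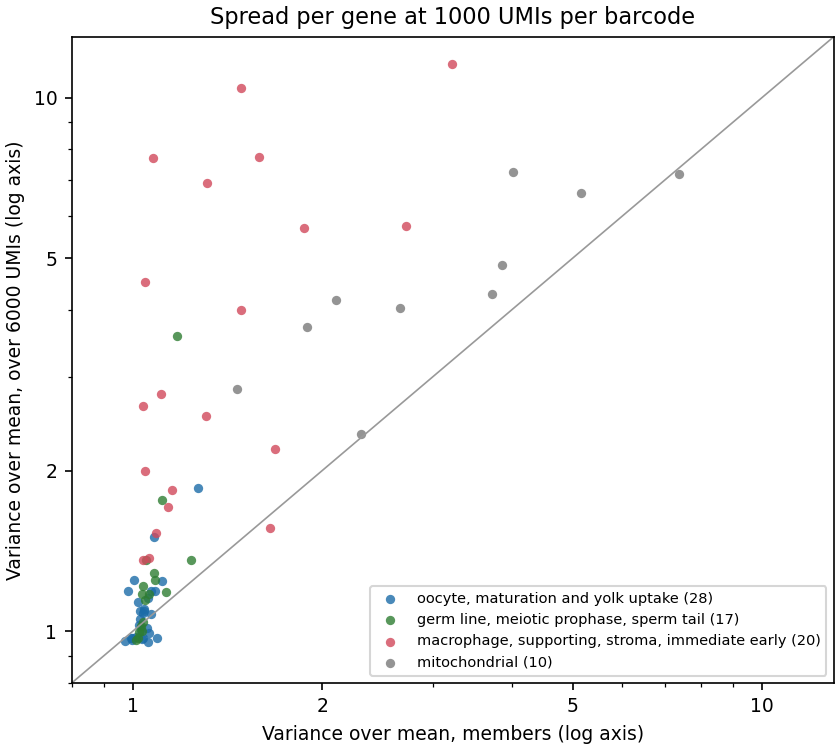
Variance over mean of each gene's UMIs at 1000 UMIs per barcode, barcodes over 6000 UMIs against members (both log axes), for genes with at least 20 thinned UMIs in both sets; the line marks equality. Oocyte genes cluster near 1 on both axes, while macrophage, supporting cell, stroma and immediate early genes lie above the line except the macrophage gene fcer1g (1.65 in members, 1.56 over 6000 UMIs), with fosab at 3.21 in members and 11.5 over 6000 UMIs.

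A small number of members stood apart. The 10 most variable genes among members with at least 200 UMIs all lacked a symbol, and 48.1% of their 54062 UMIs lay in the 37 members (1%) richest in them. In those 37 barcodes the 10 genes took 7.89% to 31.6% of all UMIs, against a median of 0.0974% over members. The same barcodes held 111 of the 309 UMIs of the erythroid list, and their oocyte genes outside the rule stood at 4825 CPM. Named genes next in variability, chosen after their values were seen, were led by the mitochondrial genes COX2 and COX3. Those had 19.9% and 18.9% of their UMIs in the 37 members richest in each. The blood cell receptor gene flt3 had 80.3% of its 401 UMIs in its own richest 37, and the metalloprotease gene mep1ba 84.1% of 309. These members were ranked for each gene separately and need not be the 37 above. Only 115 members had any UMI of flt3 and 86 of mep1ba, so high shares partly follow from this ranking.

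Oocyte transcripts were also found in juvenile barcodes with clear somatic content. Chosen after the values were seen, 36 barcodes over 6000 UMIs had at least 20 UMIs of the supporting cell list, which stood there at 3837 CPM, with gsdf at 883 CPM, cldn11a at 1813 CPM and amh at 34.4 CPM. Macrophage list genes stood there at 5522 CPM, nearly all from cd74 and cd74b. Oocyte genes outside the rule stood at 2382 CPM (2294 to 2472) in them, below the 7154 CPM of members and above the 399.5 CPM of the differentiating testis. A further 16 deep barcodes with at least 20 UMIs of c1qa, c1qb and c1qc and fewer than 20 of the supporting list had macrophage genes at 25226 CPM and oocyte genes at 2076 CPM (1903 to 2260).

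At 1000 UMIs per barcode, gtf3a was seen in 77.5% of members (76.1 to 78.8), 74.96% of barcodes over 6000 UMIs (71.5 to 78.2), 52.8% of the 36 supporting-rich barcodes (35.5 to 69.6) and 37.5% of the 16 c1q-rich barcodes (15.2 to 64.6). Median depths before thinning were 3042, 14706, 21111 and 14473 UMIs, and gtf3a was then seen in 97.5% of members and in all barcodes of the 3 deeper sets. For zpcx the thinned shares were 80.9%, 63.7%, 44.4% and 43.8%. No UMI of any of the 19 genes was seen in 19.4% of the supporting-rich and 18.75% of the c1q-rich barcodes at that depth. Oocyte genes were thus seen in most barcodes rich in somatic markers too. How far RNA from outside the captured cell contributed to the members was not tested.

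The genes zpcx and gtf3a led the oocyte genes in every juvenile set, but the mix was not the same. Of the UMIs of the 19 genes, zpcx took 24.5% in members, 21.6% over 6000 UMIs, 24.2% under 1000 UMIs and 21.8% in the supporting-rich barcodes. The share of gtf3a was 22.2%, 28.7%, 18.3% and 29.2% in the same order. In the adult testes pabpc1l led instead, with 67.8% in the differentiating and 50.0% in the regressed testis. The foxl2l share was 0.460% in members, 0.956% over 6000 UMIs and 0.398% in the supporting-rich barcodes. Between members and barcodes over 6000 UMIs, gdf9 took 1.04% and 0.458%, ybx2 1.70% and 0.849%, and zar1l 8.41% and 11.5%.

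Barcodes over 6000 UMIs were themselves of more than 1 kind. Under the 5th percentile of members (0.422% of UMIs from the 19 genes) lay 167 of them, or 24.5%, and 516 lay at or above it. By this construction the latter had more oocyte transcripts, at 6243 against 1986 CPM. Their macrophage genes stood at 486 CPM against 4053 CPM, supporting cell genes at 176 against 1061 CPM, and immediate early genes at 437 against 3721 CPM. Their germ cell lists were lower too. Germ line genes of both sexes stood at 927 against 2030 CPM, and meiotic prophase genes at 728 against 1267 CPM. Spermatid genes stood at 178 against 332 CPM and genes of undifferentiated spermatogonia at 56.5 against 137 CPM. Their ribosomal protein genes stood at 231539 CPM, still above the 152477 CPM of members.

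Over all genes, with each set thinned to 139664 UMIs in sum, 86.3% of the profile was in common between members and barcodes under 1000 UMIs, and 85.2% between members and the barcodes short of 10 UMIs. It was 77.4% with barcodes over 6000 UMIs, 56.9% with the supporting-rich and 52.6% with the c1q-rich barcodes, 54.4% with the regressed and 46.3% with the differentiating testis. The value for separate draws from members alone was not taken. How much of the shortfall from a full overlap comes from UMI sampling is therefore not known.

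The label was checked on the 19 oocyte genes outside the rule, which were abundant in members but stood at like levels in the other juvenile barcodes under 6000 UMIs. Markers of other types were mixed. The defining genes amh, star and cdh5 stood at 0.345, 0.432 and 1.38 CPM in members, whereas inha stood at 66.4 CPM and cd74b at 101 CPM. The supporting cell list, at 126 CPM in members, was 16.6 times the level of the differentiating testis and 2.72 times that of the regressed testis. Whether each member was an oocyte cannot be told from these counts.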

How the data were processed

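UMI counts per gene and barcode were deposited by the authors as whole numbers, not normalised. Cell Ranger 3.1.0 and STAR are named per the submitters' processing notes, whereas Cell Ranger 5.0.0 is named per the file headers; the genome build and the settings for calling cells are not given in the sources used here. Deposited juvenile barcodes held at least 500 UMIs, and library totals were 24826985 UMIs (juvenile), 102809626 (differentiating) and 293009193 (regressed). Of 27368 features, 15972 carried LOC numbers. Of these, 15971 were found in a table of assembly L_crocea_2.0, used for names alone, and 6125 received a symbol. The table gave no full gene names. List genes known by name alone, such as hemoglobins and zona pellucida proteins without a symbol, could therefore not be matched.

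Members and gene lists were chosen with earlier results of these data known. UMIs were summed over sets of barcodes and scaled to CPM. At the 95% level, levels have exact Poisson intervals and ratios of levels have binomial intervals conditional on the summed count. Both reflect counting error of UMIs alone and leave out the spread between barcodes. Shares have Clopper-Pearson intervals over barcodes, which are not replicates. For an absent transcript the upper limit is 3 counts. Genes needed at least 100 UMIs over both sets. With 1 library per group, no test was run. Named genes were those of the 20 lists, the 15 highest and 15 lowest ratios, the 15 most abundant and the 10 most variable genes; features without a symbol were counted and not named. Doublets were kept, and the 180 barcodes with the highest simulated-doublet scores (115 members) were left out as an alternative. Python 3.11.15, numpy 2.4.6 and scipy 1.17.1 were used. The ranking was tested on simulated data. Of the genes named by this rule, 1 with a low ratio is not reported here.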

Additional observations from a re-analysis of the deposited data

How the results depend on the processing

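No paired analysis was possible because each group had 1 library. The number of members was 2740 with at least 20 UMIs of the 4 genes and 3857 with at least 5. The ratio of oocyte genes, 1.438, became 1.377 without the 50 most abundant genes, 1.182 with median-of-ratios size factors, 1.337 as a mean over barcodes, 1.457 with at least 20 UMIs of the 4 genes, 1.454 against barcodes over 10000 UMIs and 1.123 against those short of 10 UMIs. The supporting cell ratio, 0.2863, became 0.2351 with the size factors, 0.4263 as a mean over barcodes, 0.2628 without the highest doublet scores, 0.2673 against barcodes over 10000 UMIs and 0.9727 against those short of 10 UMIs. The 1355 genes at least 2-fold higher became 477 with the size factors, 667 against barcodes short of 10 UMIs and 3102 with a minimum of 1 UMI. The 1079 lower genes became 513 against barcodes short of 10 UMIs, 2925 with a minimum of 20 UMIs and 5937 with a minimum of 1 UMI. A lower minimum adds genes of few UMIs; otherwise the cause was not tested. Neither ratio changed direction in these settings. Leaving out barcodes shared with an adult library, an alternative chosen after seeing the data, moved none of the 5 values past these limits. The ovarian follicle list rested on 55 UMIs in members and the endothelial list on 60.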
